A study of Caenorhabditis elegans with 8 samples.

Results

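Embryonic cell fate genes are described here: 32 regulators of the endoderm, mesoderm, pharynx, muscle, epidermis and body axis, together with early zygotic transcripts, of the 46748 genes in the count table. They were chosen by WormBase symbol from a list of names, and all 32 symbols matched a gene. The list was drawn up with earlier results of these data known, so shares set beside those of all tested genes are descriptive only. RNA came from whole Caenorhabditis elegans of the wild-type strain N2, fed an hlh-2 RNAi plasmid (3 libraries), a lin-32 RNAi plasmid (3 libraries) or the empty plasmid L4440 (2 libraries). HLH-2 is the E-protein dimer partner of basic helix-loop-helix factors, and LIN-32 is an Atonal-related proneural factor. The sources used here do not give the stage of the worms. Nor do the labels say whether replicates came from separate cultures, so p-values cover only library-to-library spread, part of which may be technical.

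The embryo of C. elegans is patterned by regulators that the mother loads into the egg and by zygotic transcription factors that act in short cascades. SKN-1 starts the endoderm and mesoderm cascade through MED, END and ELT factors of the GATA family, POP-1 carries the Wnt signal, and PAL-1 acts in the posterior founder cells. Many of the factors also have later roles in larvae or adults, as elt-2 has in the intestine and lin-39 in the vulva, so RNA of whole animals can come from embryos inside the mother, from the germ line or from adult tissues.

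Total counts were 29783012 to 33317295 in the hlh-2 RNAi libraries, 28979768 to 34814808 in the lin-32 RNAi libraries, and 22380739 and 27737470 in the L4440 libraries. The targeted transcripts were examined first. The hlh-2 transcript averaged 50.6 ± 2.87 CPM (counts relative to the scaled total of each library, mean ± SD) in the libraries labelled hlh-2 RNAi, 22.1 ± 6.16 CPM in those labelled lin-32 RNAi and 49.8 ± 1.16 CPM in L4440. It fell in the libraries labelled lin-32 RNAi against L4440 (log2 fold change -1.16 ± 0.15, edgeR adjusted p = 0.0041, and 0.068 without L4440 replicate 2) and thus did not follow its label. The lin-32 transcript averaged 2.62 ± 0.69 CPM, 0.81 ± 0.15 CPM and 1.46 ± 0.057 CPM in the same 3 groups. Its log2 fold change was -0.86 ± 0.29 for lin-32-labelled libraries against L4440 (adjusted p = 0.233) and 0.85 ± 0.25 for hlh-2-labelled libraries against L4440 (adjusted p = 0.456), neither of which passed, and 1.71 ± 0.23 for hlh-2-labelled against lin-32-labelled libraries (adjusted p = 0.0067), which did. The groups are therefore named by their labels, as hlh-2-labelled and lin-32-labelled libraries. Oocyte and eggshell genes summed to 17974 to 18340 CPM in hlh-2-labelled libraries, 17689 to 18834 CPM in lin-32-labelled libraries, and 18563 and 19001 CPM in L4440. Sperm genes summed to 4.18 to 10.2 CPM over all 8 libraries, and 1 to 19 of the 36 sperm genes had no count in a given library.

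The regulators differed widely in level. Per kilobase of exon, pal-1 averaged 136 CPM over the 8 libraries, skn-1 97.9, lin-26 65.2, die-1 27.2, pop-1 12.7, sdz-28 11.4 and vet-6 10.9. Next came elt-1 (7.65 CPM per kilobase), ceh-13 (7.42), elt-3 (7.16), unc-120 (6.53), elt-2 (6.38) and elt-7 (6.35). The middle of the order held tbx-38 (5.31 CPM per kilobase), pha-4 (5.17), tbx-37 (3.61), php-3 (3.49), pes-1 (3.35), hnd-1 (3.34), elt-6 (3.07), hlh-1 (2.81) and lin-39 (2.74). It ended with ceh-51 (1.64 CPM per kilobase), ceh-36 (1.59), nob-1 (1.51), vab-15 (1.29), mab-5 (0.96), end-1 (0.95), end-3 (0.90), vab-7 (0.63), tbx-35 (0.11) and med-2 (0.027). The order is a ladder with few clear steps: library ranges overlapped between 24 pairs of neighbours and did not overlap between 7. The clear steps were those that separate each of pal-1, skn-1, lin-26 and die-1 from the next gene, then vet-6 from elt-1, lin-39 from ceh-51, and vab-7 from tbx-35.

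Most of the factors, 25 of the 32 genes, lay below the median of tested genes, 8.11 CPM per kilobase. Some were close to it, as elt-1 at percentile 49.4, and some far below, as vab-7 at 14.2. Before correction for length, 5 of the 32 averaged under 1 CPM, 17 from 1 to 10 CPM and 10 at least 10 CPM. The 4 most abundant, skn-1, pal-1, lin-26 and die-1, held 79.1% of the summed CPM of the 32. Counts limited the precision: pal-1 had at least 4482 counts in every library, whereas vab-7 had 9 to 23 and end-1 14 to 31. Spread between replicates limited it too. Its biological coefficient of variation was 15.7% for tbx-38, with 1334 counts over the 8 libraries, and 6.79% for nob-1, with 780. A filter on low counts kept 14272 genes and 30 of the 32, leaving out med-2 and tbx-35.

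**Figure D1:**
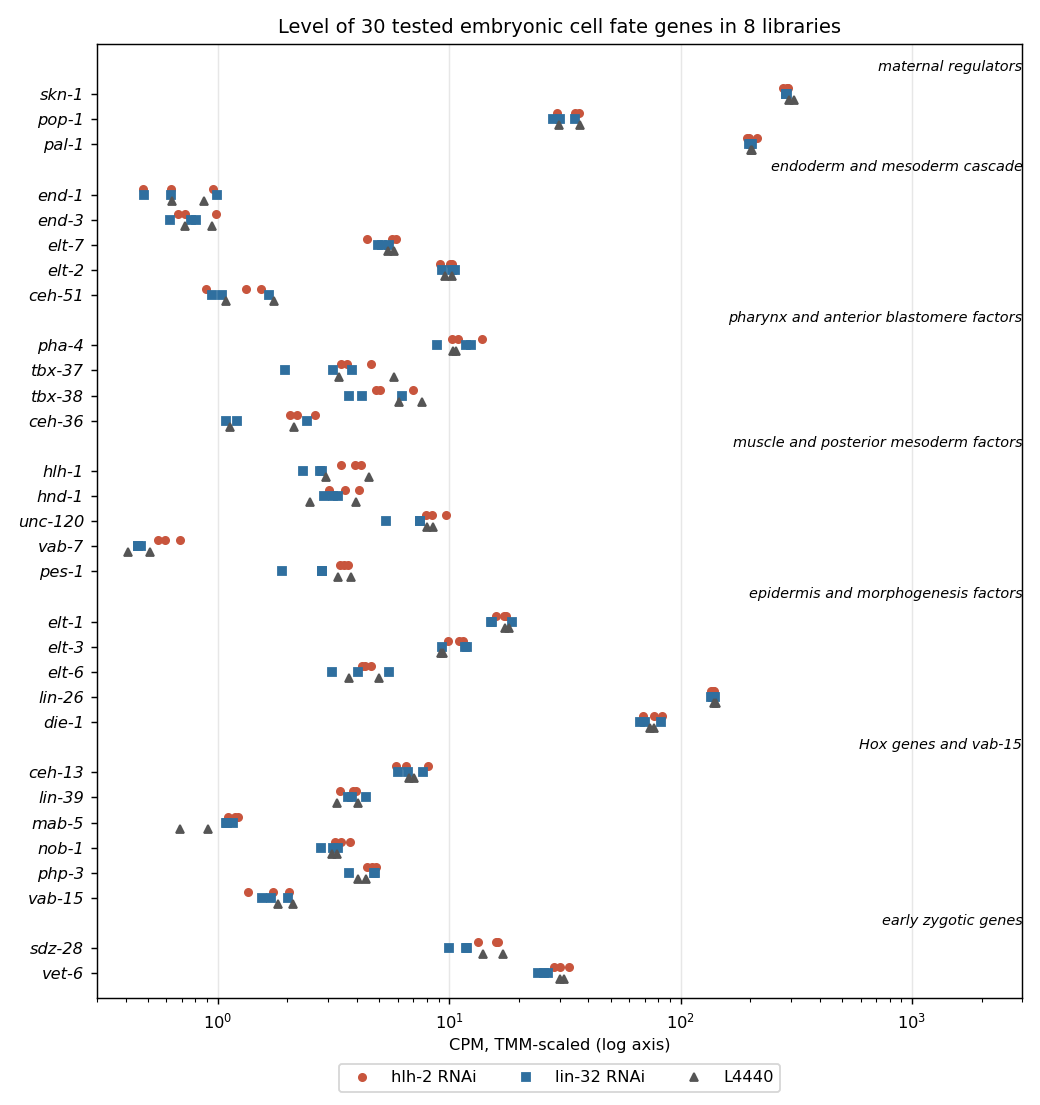
Level of the 30 tested genes in each of the 8 libraries, as CPM on a log axis, arranged by role; each symbol is 1 library and its shape and colour give the group. The groups lie on top of each other for most genes, from vab-7 and end-1 below 1 CPM to pal-1 and skn-1 at 201 and 290 CPM on average.

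The maternal regulators were skn-1, pop-1 and pal-1. SKN-1, a transcription factor that specifies the EMS blastomere, is encoded by skn-1 on chromosome IV (WBGene00004804, WBcel235 5651039 to 5660384). Its transcript had 292, 287 and 277 CPM in hlh-2-labelled libraries, 288, 285 and 285 CPM in lin-32-labelled libraries, and 309 and 295 CPM in L4440. The L4440 libraries were above all 6 RNAi libraries, by a narrow margin. Log2 fold changes were -0.079 ± 0.037 (SE) for hlh-2-labelled libraries against L4440 and -0.077 ± 0.037 for lin-32-labelled libraries against L4440, with adjusted p = 0.740 and 0.414 in edgeR's quasi-likelihood test, so neither passed. All adjusted p-values below are from that test with Benjamini-Hochberg adjustment over 14272 genes unless another is named. In whole-animal RNA, fewer cells of a type and less RNA per cell cannot be told apart.

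The Caudal-related homeobox gene pal-1 had nearly equal levels throughout, with 197, 193 and 214 CPM in hlh-2-labelled libraries, 202, 197 and 203 CPM in lin-32-labelled libraries, and 203 and 202 CPM in L4440. Its log2 fold change lay between -0.10 and 0.087 (95% interval) for hlh-2-labelled libraries against L4440. The TCF gene pop-1, the nuclear effector of Wnt signalling, had 33.5 ± 3.72, 31.1 ± 3.55 and 33.3 ± 4.70 CPM in hlh-2-labelled, lin-32-labelled and L4440 libraries, and the 3 groups overlapped. The exons of skn-1, pal-1 and pop-1 share 41, 66 and 100 bases with those of csn-5, metl-5 and W03D8.13. The libraries do not mark strand, so reads of the stretches shared with csn-5 and metl-5, on the other strand, cannot be assigned to 1 gene. Because W03D8.13 lies on the same strand as pop-1, strand could not assign reads of their shared bases either.

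The endoderm and mesoderm cascade runs from med-2 through end-1 and end-3 to elt-7 and elt-2, with tbx-35 and ceh-51 on the mesodermal (MS) branch. At its top, med-2, a GATA-type target of SKN-1, was almost unread: 0, 0 and 0 counts in hlh-2-labelled libraries, 1, 0 and 1 in lin-32-labelled libraries, and 1 and 0 in L4440. The 0 counts of the hlh-2-labelled group allow a level of up to 0.031 CPM over its 3 libraries. Its near-identical copy med-1 had 0, 0 and 1 counts, 0, 2 and 0 counts, and 0 and 2 counts in the same groups, and reads could have been split between the copies. The T-box gene tbx-35, which specifies the MS blastomere, had 2, 5 and 3 counts, 2, 0 and 6 counts, and 5 and 4 counts in hlh-2-labelled, lin-32-labelled and L4440 libraries. No difference in med-2 or tbx-35 was detectable at this depth.

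The GATA genes end-1 and end-3, which specify the endodermal E blastomere, lie 27620 bases apart on chromosome V. For end-1 the level was 0.63, 0.48 and 0.95 CPM in hlh-2-labelled libraries, 0.63, 0.48 and 0.996 CPM in lin-32-labelled libraries, and 0.64 and 0.87 CPM in L4440. The replicates of one group thus spanned a range as wide as that between groups. For end-3 the group means were 0.80 ± 0.17, 0.73 ± 0.095 and 0.84 ± 0.15 CPM in hlh-2-labelled, lin-32-labelled and L4440 libraries. The ratio of end-1 to end-3 per kilobase was close to 1 in each group, at 1.06 ± 0.54, 1.10 ± 0.35 and 1.04 ± 0.039. With so few counts the 95% interval of end-1 for lin-32-labelled libraries against L4440 ran from -0.98 to 0.70 on the log2 scale, wide enough to hold a large change in either direction.

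The intestinal differentiation factors elt-7 and elt-2 had more counts and were measured more tightly. The elt-2 transcript, which encodes the GATA factor that maintains the intestine, had 9.17, 10.3 and 10.05 CPM in hlh-2-labelled libraries, 9.35, 10.6 and 10.3 CPM in lin-32-labelled libraries, and 9.57 and 10.3 CPM in L4440. Its log2 fold change was -0.013 ± 0.096 for hlh-2-labelled and 0.021 ± 0.096 for lin-32-labelled libraries against L4440, and both intervals stayed within 0.25 of 0. For elt-7 the means were 5.33 ± 0.80, 5.18 ± 0.27 and 5.61 ± 0.23 CPM in hlh-2-labelled, lin-32-labelled and L4440 libraries. The homeobox gene ceh-51, which acts with tbx-35 in the MS lineage, had 1.25 ± 0.33, 1.22 ± 0.39 and 1.42 ± 0.46 CPM in these groups. None of the 5 tested genes of the cascade passed the test in any comparison, and the libraries of every pair of groups overlapped for all 5.

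Among pharynx and anterior blastomere factors, pha-4, the FoxA gene of pharyngeal organ identity, had 10.3, 10.9 and 13.8 CPM in hlh-2-labelled libraries, 8.89, 11.8 and 12.5 CPM in lin-32-labelled libraries, and 10.4 and 10.7 CPM in L4440. The groups overlapped. The redundant T-box genes tbx-37 and tbx-38, which act in descendants of the anterior ABa blastomere, showed larger differences. For tbx-37 the level was 3.40, 4.59 and 3.63 CPM in hlh-2-labelled libraries, 1.95, 3.81 and 3.15 CPM in lin-32-labelled libraries, and 5.76 and 3.34 CPM in L4440. For tbx-38 it was 4.82, 7.003 and 5.04 CPM, 3.70, 6.24 and 4.18 CPM, and 7.66 and 6.06 CPM in the same groups.

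Both T-box genes had their lowest value in the lin-32-labelled library of replicate 1 and their highest in L4440 replicate 1, and the groups overlapped. In lin-32-labelled libraries against L4440 the log2 fold change was -0.58 ± 0.27 for tbx-37 (adjusted p = 0.402) and -0.52 ± 0.22 for tbx-38 (adjusted p = 0.353), and neither passed. The value of tbx-37 rested on the controls, at -0.15 when L4440 replicate 1 was left out and -0.94 when L4440 replicate 2 was. That of tbx-38 ran from -0.79, without lin-32 RNAi replicate 2, to -0.35 over 16 alternative settings. Within both RNAi groups the library of replicate 2 was the highest for both genes. Their ratio, tbx-38 to tbx-37 per kilobase, was 1.41 ± 0.070, 1.58 ± 0.28 and 1.53 ± 0.33 in hlh-2-labelled, lin-32-labelled and L4440 libraries. The group means of the ratio were thus similar, while single libraries ran from 1.29 to 1.84, both in the lin-32-labelled group. The Otx-family homeobox gene ceh-36 had 2.05, 2.21 and 2.64 CPM in hlh-2-labelled libraries, 1.08, 1.21 and 2.42 CPM in lin-32-labelled libraries, and 1.13 and 2.14 CPM in L4440, with adjusted p = 0.865 and 0.944 against L4440.

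All 5 muscle and posterior mesoderm factors had a higher mean in hlh-2-labelled than in lin-32-labelled libraries, though none passed the test. MyoD-related hlh-1, the master regulator of body wall muscle, had 3.40, 3.93 and 4.18 CPM in hlh-2-labelled libraries, 2.34, 2.82 and 2.76 CPM in lin-32-labelled libraries, and 2.95 and 4.50 CPM in L4440. All 3 lin-32-labelled libraries lay below the other 5. Its log2 fold change was 0.54 ± 0.16 for hlh-2-labelled against lin-32-labelled libraries (adjusted p = 0.307) and -0.51 ± 0.19 for lin-32-labelled libraries against L4440 (adjusted p = 0.285), so it passed in neither. Leaving out L4440 replicate 1 gave -0.77 against the other control, and leaving out L4440 replicate 2 gave -0.15. The exons of hlh-1 share 68 bases with B0304.4 on the other strand. That gene had 5369 counts over the 8 libraries, against 810 for hlh-1, and log2 fold changes of 0.039 and -0.021 in the same comparisons.

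The SRF-related gene unc-120, which acts with hlh-1 in muscle, had 7.92, 8.46 and 9.74 CPM in hlh-2-labelled libraries, 5.34, 7.51 and 7.504 CPM in lin-32-labelled libraries, and 8.53 and 8.02 CPM in L4440. Again the lin-32-labelled libraries lay below the other 5, with a log2 fold change of 0.36 ± 0.13 for hlh-2-labelled against lin-32-labelled libraries and adjusted p = 0.481, and 0.21 without lin-32 RNAi replicate 1. The forkhead gene pes-1, expressed in early embryonic lineages, had 3.50, 3.67 and 3.38 CPM, 2.82, 1.89 and 2.82 CPM, and 3.76 and 3.30 CPM in hlh-2-labelled, lin-32-labelled and L4440 libraries. For pes-1 the log2 fold change was 0.50 ± 0.16 between the RNAi groups (adjusted p = 0.348) and -0.50 ± 0.18 for lin-32-labelled libraries against L4440 (adjusted p = 0.285). Without lin-32 RNAi replicate 2 these were 0.32 and -0.32.

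HAND-related hnd-1, another embryonic muscle factor, had 3.04, 3.55 and 4.09 CPM in hlh-2-labelled libraries, 3.31, 2.88 and 3.15 CPM in lin-32-labelled libraries, and 2.49 and 3.96 CPM in L4440, and the groups overlapped. Even-skipped-related vab-7, a patterning gene of the posterior C lineage, had 0.59, 0.69 and 0.55 CPM in hlh-2-labelled libraries, 0.45, 0.45 and 0.46 CPM in lin-32-labelled libraries, and 0.41 and 0.51 CPM in L4440. Its hlh-2-labelled libraries lay above the other 5. The 95% interval of vab-7 against L4440 ran from -0.26 to 1.06 (log2), with adjusted p = 0.886. The 5 genes had a median log2 fold change of 0.42 for hlh-2-labelled against lin-32-labelled libraries, with a range from 0.20 to 0.54, and none passed the test.

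None of the 5 epidermal and morphogenesis factors passed the test in any comparison. The GATA gene elt-1, which specifies epidermis, averaged 16.9 ± 0.89, 16.4 ± 1.93 and 17.7 ± 0.53 CPM in hlh-2-labelled, lin-32-labelled and L4440 libraries. The zinc-finger gene lin-26, which maintains epidermal fate, averaged 138 ± 1.75, 138 ± 2.93 and 141 ± 2.6 CPM. Its log2 fold changes were -0.035 ± 0.034, -0.026 ± 0.034 and -0.0086 ± 0.030 for hlh-2-labelled against L4440, lin-32-labelled against L4440 and hlh-2-labelled against lin-32-labelled libraries, and all 3 intervals stayed within 0.25 of 0. Exons of lin-26 share 156 bases with lir-1 on the same strand. The zinc-finger gene die-1, needed for epidermal morphogenesis, averaged 76.2 ± 6.95, 73.0 ± 8.12 and 75.2 ± 2.13 CPM in the 3 groups.

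For elt-3, a GATA gene of epidermal differentiation, the values were 11.4, 9.92 and 10.999 CPM in hlh-2-labelled libraries, 9.31, 11.8 and 11.99 CPM in lin-32-labelled libraries, and 9.39 and 9.22 CPM in L4440. Both controls were at the low end, and only 1 RNAi library, the lin-32-labelled replicate 1, lay between them. Log2 fold changes against L4440 were 0.21 ± 0.12 and 0.25 ± 0.12 for hlh-2-labelled and lin-32-labelled libraries (adjusted p = 0.784 and 0.411). For elt-6, a GATA gene of seam cells, group means were 4.38 ± 0.21, 4.21 ± 1.20 and 4.35 ± 0.91 CPM in hlh-2-labelled, lin-32-labelled and L4440 libraries, and the spread within the lin-32-labelled group exceeded any difference between means.

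The Hox genes assign position along the body axis, and 5 of the 6 genes of this role are Hox genes. Labial-related ceh-13 and the mid-body gene lin-39 lie 19027 bases apart on chromosome III, and the posterior Abdominal-B-related genes php-3 and nob-1 are 236 bases apart on the same strand of that chromosome. The ceh-13 transcript averaged 6.85 ± 1.14, 6.78 ± 0.88 and 6.90 ± 0.26 CPM in hlh-2-labelled, lin-32-labelled and L4440 libraries, and lin-39 averaged 3.72 ± 0.31, 3.95 ± 0.38 and 3.65 ± 0.54 CPM. The php-3 level per kilobase was 2.28 ± 0.15, 2.41 ± 0.17 and 2.23 ± 0.065 times that of nob-1 in these groups. Neither gene of the php-3 and nob-1 pair passed, with log2 fold changes of 0.13 ± 0.14 and 0.10 ± 0.14 for hlh-2-labelled libraries against L4440.

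Antennapedia-related mab-5, which patterns the posterior body, had the largest log2 fold change of the 30 genes against L4440 in the hlh-2-labelled group. It had 1.19, 1.22 and 1.11 CPM in hlh-2-labelled libraries, 1.08, 1.10 and 1.16 CPM in lin-32-labelled libraries, and 0.91 and 0.69 CPM in L4440. All 6 RNAi libraries lay above both controls. The controls had 20 and 19 counts. Its log2 fold change was 0.57 ± 0.23 for hlh-2-labelled libraries (adjusted p = 0.693) and 0.50 ± 0.24 for lin-32-labelled libraries (adjusted p = 0.412), and it passed in neither. Without L4440 replicate 2 these were 0.37 and 0.30. The Msx-related gene vab-15 had 1.35, 1.73 and 2.03 CPM in hlh-2-labelled libraries, 2.02, 1.69 and 1.56 CPM in lin-32-labelled libraries, and 1.81 and 2.11 CPM in L4440, and the groups overlapped.

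The early zygotic genes sdz-28, a SKN-1-dependent zygotic transcript, and vet-6, a very early zygotic transcript, came closest to the threshold. For sdz-28 (WBGene00020073, chromosome II, 2131070 to 2132475) the level was 13.3, 15.9 and 16.3 CPM in hlh-2-labelled libraries, 9.97, 11.9 and 11.8 CPM in lin-32-labelled libraries, and 17.1 and 14.1 CPM in L4440. For vet-6 (WBGene00006902, chromosome I, 13269984 to 13272781) it was 28.5, 30.1 and 32.97 CPM, 24.1, 25.7 and 26.8 CPM, and 31.4 and 30.03 CPM in the same groups. In both genes every lin-32-labelled library lay below every other library. The log2 fold change of sdz-28 was -0.46 ± 0.12 for lin-32-labelled libraries against L4440 (adjusted p = 0.104) and 0.43 ± 0.10 for hlh-2-labelled against lin-32-labelled libraries (adjusted p = 0.125). That of vet-6 was -0.26 ± 0.071 (adjusted p = 0.129) and 0.26 ± 0.062 (adjusted p = 0.130, and 0.038 with the replicate number as a block). Between hlh-2-labelled libraries and L4440 the log2 fold changes were -0.028 ± 0.12 for sdz-28 and -0.0069 ± 0.070 for vet-6. Over 16 alternative settings, sdz-28 ran from -0.60 to -0.32 for lin-32-labelled libraries against L4440 and from 0.36 to 0.52 between the RNAi groups. For vet-6 these ranges were -0.31 to -0.23 and 0.20 to 0.31. The largest adjusted p between the RNAi groups was 0.43 for sdz-28, without hlh-2 RNAi replicate 3, and 0.46 for vet-6.

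**Figure D2:**
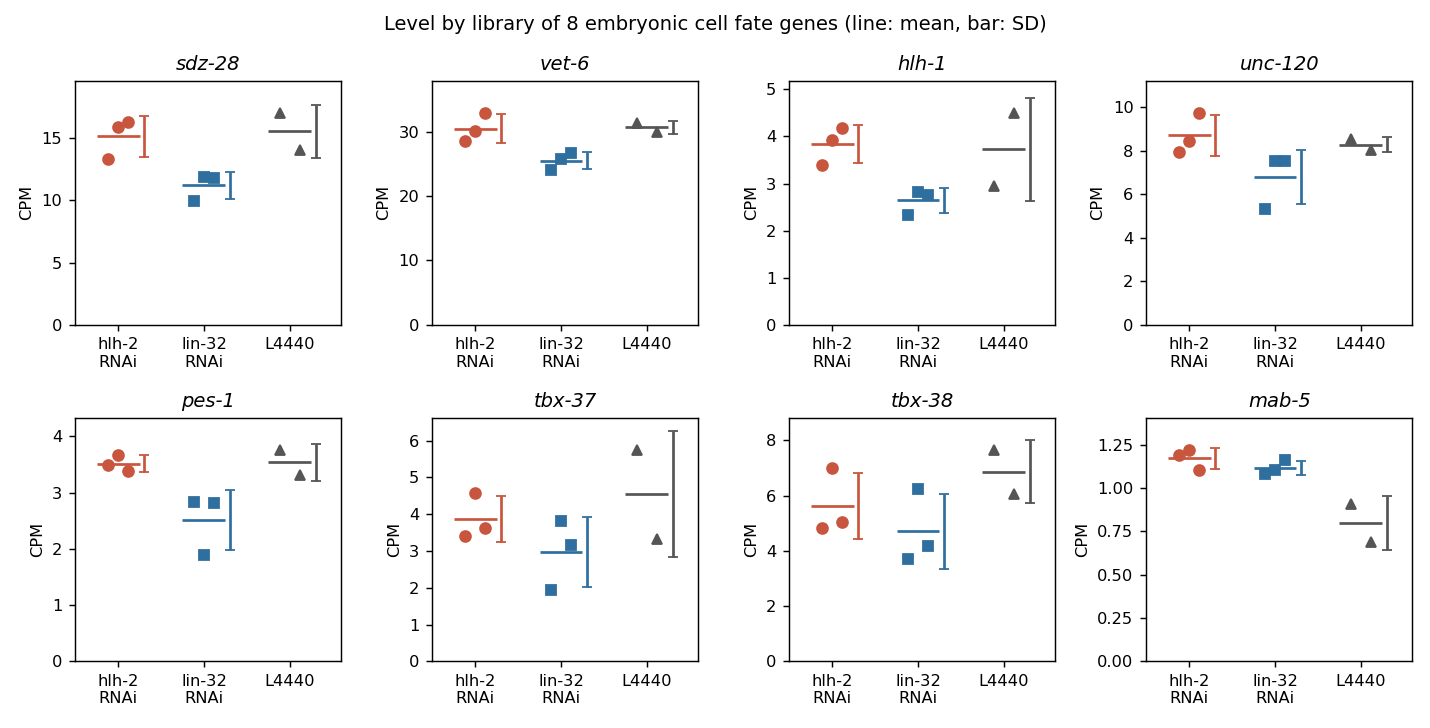
CPM by library for 8 genes, in hlh-2 RNAi, lin-32 RNAi and L4440 libraries (points), with the group mean (line) and SD (bar). They are the 7 genes with an unadjusted p under 0.05 in any comparison and tbx-37; in sdz-28, vet-6, hlh-1, unc-120 and pes-1 the 3 lin-32 RNAi libraries lie below the other 5, in tbx-37 and tbx-38 the groups overlap, and in mab-5 the 2 L4440 libraries are lowest.

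The first comparison asked what the hlh-2-labelled group changed relative to L4440. None of the 30 tested genes passed at an adjusted p of 0.05, where 0.203% of all tested genes did. Only mab-5 had an unadjusted p under 0.05, where 6.78% of all tested genes did in either direction. It was higher, as were 3.14% of all tested genes. DESeq2 and limma-voom also called none of the 30. Libraries did not overlap for 4 genes that were higher (vab-7, elt-3, mab-5 and php-3), against 11.9% of all tested genes, and for 1 that was lower (skn-1), against 12.2%. The log2 fold change was above 0 for 14 of the 30 (46.7%), as for 49.7% of all tested genes, and its median was -0.0046 over the 30 and -0.00068 over all. Of the 30 intervals, 27 lay within 1 log2 unit of 0 and 20 within 0.5.

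The second comparison set lin-32-labelled libraries against the same L4440 libraries. None of the 30 passed, and 0.743% of all tested genes did. Of the 30, 5 (16.7%) had an unadjusted p under 0.05, all lower: tbx-38, hlh-1, pes-1, sdz-28 and vet-6. Among all tested genes 12.6% were under 0.05 in either direction, and 6.82% were lower at that level. DESeq2 called sdz-28 (adjusted p = 0.035), and limma-voom called none. Libraries did not overlap for 6 genes that were lower (skn-1, hlh-1, unc-120, pes-1, sdz-28 and vet-6), against 15.4% of all tested genes, and for mab-5, which was higher, against 14.4%. The log2 fold change was below 0 for 24 of the 30 and above 0 for 6, where 50.6% of all tested genes were above 0. Its median was -0.086 over the 30 and 0.0015 over all tested genes, and moved to -0.020 without L4440 replicate 2, -0.023 without lin-32 RNAi replicate 2 and -0.15 without L4440 replicate 1. By role the median was -0.36 for the early zygotic pair, -0.31 for pharynx and anterior blastomere factors, -0.28 for muscle and posterior mesoderm factors, -0.14 for the endoderm and mesoderm cascade, -0.077 for maternal regulators, -0.026 for epidermal factors and 0.011 for the Hox genes and vab-15.

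The third comparison set hlh-2-labelled against lin-32-labelled libraries, which shares no control. None of the 30 passed, and 0.406% of all tested genes did. Of the 30, 5 (16.7%) had an unadjusted p under 0.05, all higher: hlh-1, unc-120, pes-1, sdz-28 and vet-6. Among all tested genes 7.97% were under 0.05 in either direction, and 4.31% were higher at that level. DESeq2 called sdz-28 (adjusted p = 0.029), and limma-voom called none. Libraries did not overlap for 6 genes, all higher (hlh-1, unc-120, vab-7, pes-1, sdz-28 and vet-6), where 6.81% of all tested genes were higher without overlap. The log2 fold change was above 0 for 23 of the 30 (76.7%), against 49.3% of all tested genes, with a median of 0.072 over the 30 and -0.0015 over all. Leaving out 1 library moved that median to between 0.040, without lin-32 RNAi replicate 2, and 0.16, without replicate 3 of that group. The lin-32-labelled libraries are those compared with L4440 above, so the directions of these 2 comparisons are not separate evidence. With the replicate number as a block, 132 genes passed in place of 58, and vet-6 rose, with a log2 fold change of 0.26 and adjusted p = 0.038. That fit also held the L4440 libraries, which share only a number with the RNAi libraries, so its block terms do not rest on the paired libraries alone.

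**Figure D3:**
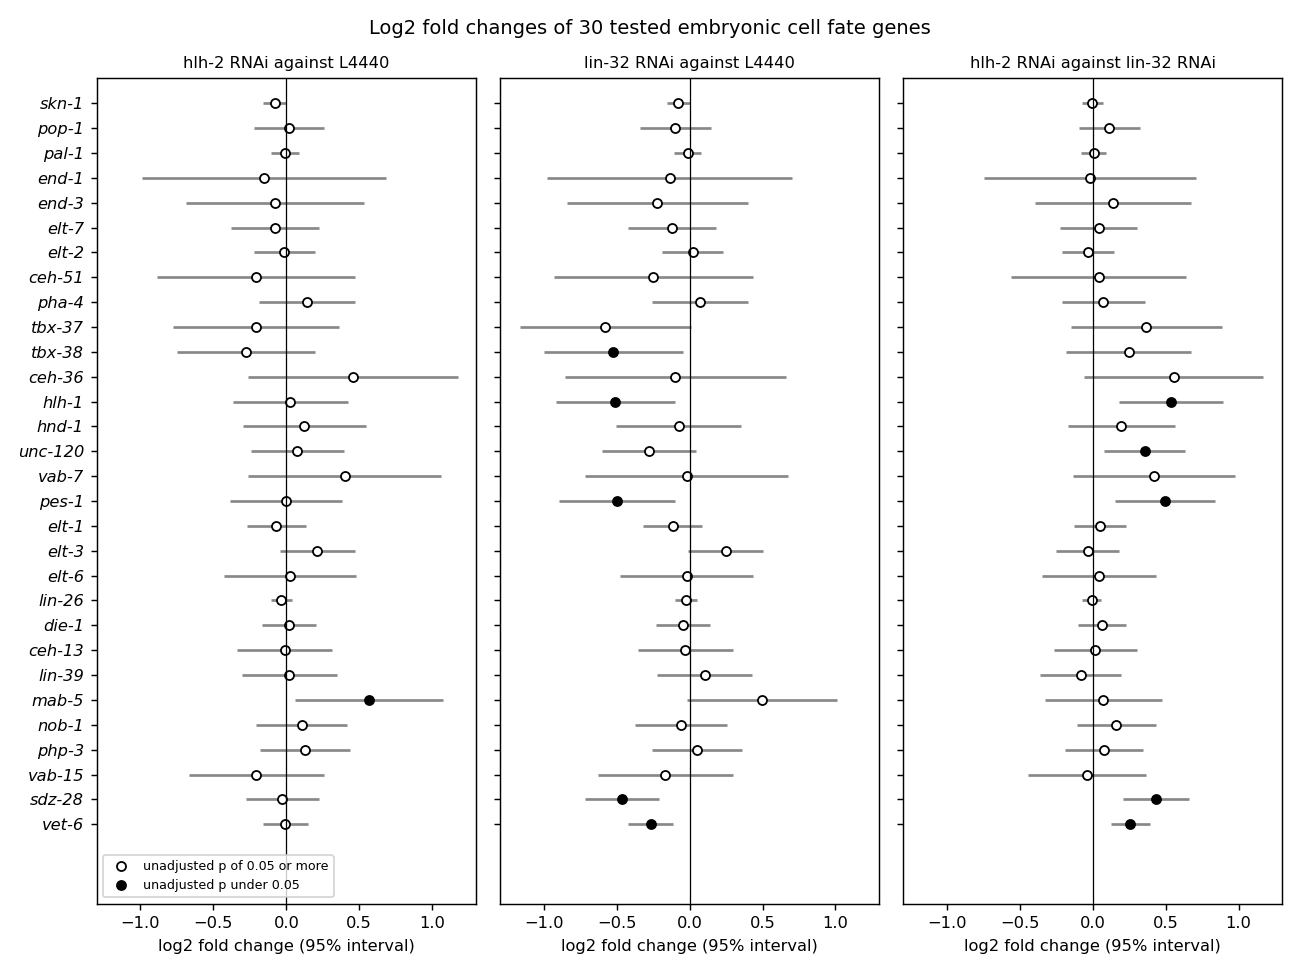
Log2 fold change of the 30 tested genes in the 3 comparisons, with 95% intervals from edgeR; filled points have an unadjusted p under 0.05 and no point passed after adjustment. The points scatter around 0 for hlh-2 RNAi against L4440, 24 of 30 lie below 0 for lin-32 RNAi against L4440, and 23 of 30 lie above 0 for hlh-2 RNAi against lin-32 RNAi.

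The difference was not even across the lin-32-labelled libraries. Each library was set against the mean of the 3 group means, on the log2 CPM scale. The median deviation of the 30 genes was -0.023, 0.059 and 0.12 in hlh-2-labelled replicates 1, 2 and 3, -0.13, -0.12 and 0.016 in lin-32-labelled replicates 1, 2 and 3, and -0.019 and 0.045 in L4440 replicates 1 and 2. The lin-32-labelled replicate 1 was the lowest of the 8 libraries for 11 of the 30 genes, and replicate 3 of that group for none. The hlh-2-labelled replicate 3 was the highest library for 10. Over all tested genes the same medians lay between 0.000087 and 0.0066. By group mean, hlh-2-labelled libraries were highest for 12 genes and lowest for 5, lin-32-labelled libraries were highest for 3 and lowest for 20, and L4440 libraries were highest for 15 and lowest for 5.

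In 16 of the 30 genes (53.3%) the same replicate number was highest in both RNAi groups, against 44.6% of all tested genes. It was replicate 3 for 10 genes (pal-1, end-1, ceh-51, pha-4, ceh-36, elt-1, die-1, ceh-13, nob-1 and vet-6), replicate 2 for elt-2, tbx-37, tbx-38 and elt-6, and replicate 1 for skn-1 and php-3. The labels name no shared batch.

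**Figure D4:**
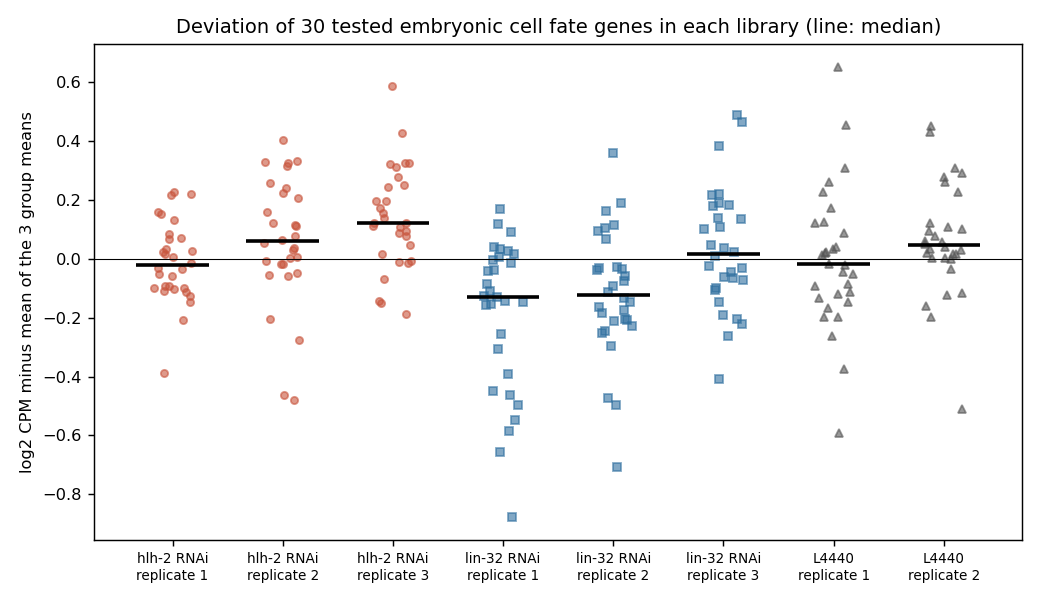
Deviation of the 30 tested genes in each of the 8 libraries from the mean of the 3 group means, in log2 CPM; each point is a gene and the black line is the median. The medians of lin-32 RNAi replicates 1 and 2 lie at -0.13 and -0.12, below the other 6 libraries, whose medians run from -0.023 to 0.12.

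The summed level of the 32 genes was 895 ± 22.2 CPM in hlh-2-labelled libraries, 872 ± 24.1 CPM in lin-32-labelled libraries and 914 ± 17.6 CPM in L4440. Without skn-1, pal-1, lin-26 and die-1 it was 195 ± 13.1, 174 ± 14.3 and 193 ± 6.0 CPM. Related lists were set beside it. Other early zygotic genes, 31 in all, summed to 233 ± 7.08, 207 ± 10.4 and 243 ± 7.08 CPM, and 44 other embryonic fate factors to 573 ± 13.8, 540 ± 23.3 and 579 ± 17.0 CPM in hlh-2-labelled, lin-32-labelled and L4440 libraries. The 19 maternal fate and polarity regulators summed to 14503 ± 74.8, 14842 ± 262 and 14770 ± 285 CPM, and the 18 oocyte and eggshell genes to 18152 ± 183, 18354 ± 594 and 18782 ± 310 CPM. The part of embryo or germ line content in the levels of the 32 genes was not tested.

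Among the other early zygotic genes 22 were tested, and in edgeR's test 1 fell in lin-32-labelled libraries against L4440 and rose in hlh-2-labelled against lin-32-labelled libraries. It was ztf-11, a MYT1-family zinc-finger gene known for its part in neurogenesis. It had 23.4, 23.99 and 26.9 CPM in hlh-2-labelled libraries, 14.4, 14.8 and 16.9 CPM in lin-32-labelled libraries, and 24.3 and 25.9 CPM in L4440. The lin-32-labelled libraries lay well below the other 5. For ztf-11 the log2 fold change was -0.71 ± 0.085 for lin-32-labelled libraries against L4440 (adjusted p = 0.0019, and 0.068 without L4440 replicate 2) and 0.69 ± 0.075 for hlh-2-labelled against lin-32-labelled libraries (adjusted p = 0.0011). DESeq2 also called sdz-5 in both comparisons (adjusted p = 0.013 and 0.020) and vet-2 against L4440 (0.029), 3 genes and 2 genes in all, whereas limma-voom called ztf-11 alone in each. The median log2 fold change of the 22 genes was -0.060 for hlh-2-labelled libraries against L4440, -0.26 for lin-32-labelled libraries against L4440 and 0.15 for hlh-2-labelled against lin-32-labelled libraries. In the second of these, 8 of the 22 had an unadjusted p under 0.05, all lower. Of all tested genes 12.6% were under 0.05 in either direction, and 6.82% were lower at that level. Libraries did not overlap for 10 that were lower, against 15.4% of all tested genes, and for 1 that was higher, against 14.4%. Between the RNAi groups 7 of the 22 were higher at an unadjusted p under 0.05, against 4.31%, and 1 was lower.

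Of 43 tested other embryonic fate factors none passed in any comparison in edgeR's test or limma-voom, and DESeq2 called ceh-43 against L4440 in the lin-32-labelled group (adjusted p = 0.0037) and between the RNAi groups (0.045). At an unadjusted p under 0.05 there were 1, 6 and 6 of the 43, where 6.78%, 12.6% and 7.97% of all tested genes were in either direction. All 6 were lower in lin-32-labelled libraries against L4440, where 6.82% of all tested genes were lower at that level. All 6 were higher in hlh-2-labelled against lin-32-labelled libraries, where 4.31% of all tested genes were higher. The medians of the 43 were 0.0065, -0.14 and 0.13 in the same order of comparisons. The Distal-less-related gene ceh-43 had 9.50, 12.4 and 11.98 CPM in hlh-2-labelled libraries, 5.72, 9.01 and 8.47 CPM in lin-32-labelled libraries, and 13.8 and 11.8 CPM in L4440. Its log2 fold change against L4440 was -0.72 ± 0.17 in lin-32-labelled libraries (adjusted p = 0.080), the smallest adjusted p of the list there. Of the 19 maternal fate and polarity regulators none passed, and their medians were -0.030, 0.0037 and -0.035. The polarity gene par-2 had log2 fold changes of -0.15 ± 0.043 and -0.17 ± 0.043 for hlh-2-labelled and lin-32-labelled libraries against L4440 (adjusted p = 0.455 and 0.097). None of the 13 genes of the Wnt and MAPK pathway that induces endoderm passed either, with medians of 0.042, 0.027 and 0.0099. Among them the beta-catenin gene bar-1 had a log2 fold change of 0.33 ± 0.11 in lin-32-labelled libraries against L4440 (adjusted p = 0.249), and the beta-catenin gene sys-1 had 0.15 ± 0.044 between hlh-2-labelled and lin-32-labelled libraries (adjusted p = 0.296).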

How the data were processed

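Total RNA was extracted with QIAzol and made into TruSeq RNA v2 libraries, per the labels' protocols; this kit does not mark strand. The submitters' processing notes name bcl2fastq 1.8.4, TopHat2 2.1.0, featureCounts 1.4.6-p4 and the build WBcel235. The authors deposited raw read counts per WormBase gene. Neither the annotation release nor the treatment of strand, multi-mapping and overlapping reads is stated in those sources.

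WormBase names matched 43693 of 46748 IDs, and coordinates and exon lengths were taken from the WBcel235 annotation of release 115. The 32 genes, their roles and the 12 other lists were chosen with earlier results of these data known. Of 266 names in the other lists, 7 matched no gene. The naming rule took all 32 genes and, from each other list and comparison, up to 4 genes that passed or, where none passed, up to 2 with the smallest p. The text names some of these.

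edgeR's filterByExpr by group set the genes tested, TMM scaled the libraries, and all 8 entered 1 quasi-likelihood fit (edgeR 4.0.16, R 4.3.3) with group as the only term. Benjamini-Hochberg adjustment ran over all genes tested, with a threshold of 0.05. CPM used the TMM-scaled library sizes. Standard errors came from the F statistic. Counting noise was exceeded between replicates of every group, with a chi-square of 5.58 to 16.0 per degree of freedom. The biological coefficient of variation common to all tested genes was 5.19%, and single genes differed from it. Limits on a count of 0 used 3 counts and cover counting error only.

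Same-numbered libraries of the RNAi groups correlated in their deviations from the group means across genes (r = 0.265, 0.194 and 0.191), so the numbers were taken to pair these 6 libraries. No shared day or batch is labelled, so the pairing rests on the data. Alternatives used DESeq2 1.42.0, limma-voom (limma 3.58.1), other scalings and filters, a replicate block and leaving out each library.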

Additional observations from a re-analysis of the deposited data

How the results depend on the processing

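The 3 counts of genes passing, the 3 counts of the 30 genes passing and the 3 medians were recomputed under 16 alternatives. Values are given below for hlh-2-labelled libraries against L4440, then lin-32-labelled libraries against L4440, then hlh-2-labelled against lin-32-labelled libraries. Genes passing (29, 106 and 58) became 223, 610 and 342 with no filter, 49, 177 and 91 with DESeq2, and 72, 350 and 132 with the replicate block. Leaving out 1 library gave 3 to 31, 17 to 157 and 25 to 93 genes. The first count moved by over 1.5 times without hlh-2 RNAi replicate 2 (15) or 3 (13) and L4440 replicate 1 (5) or 2 (3), the second without hlh-2 RNAi replicate 2 (67), lin-32 RNAi replicate 2 (60) or 3 (61) and L4440 replicate 1 (41) or 2 (17), and the third without hlh-2 RNAi replicate 1 (93), 2 (28) or 3 (31) and lin-32 RNAi replicate 2 (25).

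Of the 30 genes, 0 passed under every alternative in the first comparison. In the second, 4 passed with no filter (tbx-37, tbx-38, sdz-28 and vet-6), 1 with DESeq2 (sdz-28) and 2 with the block (sdz-28 and vet-6, adjusted p = 0.038 and 0.021). In the third, 3 passed with no filter (hlh-1, sdz-28 and vet-6), 1 with DESeq2 (sdz-28), 1 with the block (vet-6), and 0 to 1 when 1 library was left out: sdz-28 passed without hlh-2 RNAi replicate 1 (adjusted p = 0.032). The median of the 30 ran from -0.031 to 0.039 in the first comparison and from -0.15 to -0.020 in the second when 1 library was left out, was -0.16 with the block in the second, and ran from 0.040 to 0.16 in the third when 1 library was left out, the highest without lin-32 RNAi replicate 3. The unfiltered fit tested 23063 genes; the cause of the changes was not tested. Of 1431 tests of single genes of the 30 under the alternatives, 105 changed the sign of a log2 fold change that was not called (0.25 or less in size), so the counts of genes above and below 0 depend on the setting. The block changed no other call among the 30. L4440 and the RNAi groups share only 2 replicate numbers, and their same-numbered correlations were -0.066 and -0.165 for hlh-2-labelled and -0.037 and -0.122 for lin-32-labelled libraries, so they share only a number. With 2 controls and few counts for end-1, end-3, vab-7 and mab-5, differences under about 1 log2 unit were often not detectable.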

Other observations

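Lists of terminal genes of the tissues that these factors build were read from the same fit. Of 23 body wall muscle genes 1 rose in hlh-2-labelled against lin-32-labelled libraries, the myosin heavy chain gene myo-3, with a log2 fold change of 0.24 ± 0.043 (adjusted p = 0.031). It had 39.6, 40.98 and 38.6 CPM in hlh-2-labelled libraries, 34.1, 33.8 and 33.1 CPM in lin-32-labelled libraries, and 39.9 and 38.9 CPM in L4440. The call was lost under 9 of 16 alternatives, with adjusted p from 0.0023 to 0.16. The median of the 23 was -0.015 in that comparison, and the list summed to 3602 ± 117, 3691 ± 57.3 and 3652 ± 24.4 CPM in hlh-2-labelled, lin-32-labelled and L4440 libraries.

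Of 18 epidermal genes the cuticle collagen gene rol-6 fell in lin-32-labelled libraries against L4440 and rose in hlh-2-labelled against lin-32-labelled libraries. It had 15, 14 and 18 counts in hlh-2-labelled libraries, 4, 1 and 0 in lin-32-labelled libraries, and 19 and 19 in L4440. The adjusted p was 0.012 against L4440, with 0.107 without L4440 replicate 1, 0.106 without L4440 replicate 2 and 0.058 without lin-32 RNAi replicate 2, and 0.040 between the RNAi groups, where it was lost under 8 of 15 alternatives. The other 17 epidermal genes did not pass in any comparison.

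No gene of the intestine (18 tested), pharynx (15 tested) or pan-neuronal (18 tested) list passed in edgeR's test in any of the 3 comparisons. In hlh-2-labelled libraries against L4440 the intestinal protease gene asp-1 had a log2 fold change of -0.30 ± 0.057 (adjusted p = 0.066, and 2.2e-05 with DESeq2 and 0.049 with limma-voom, which both called it), and the pharyngeal myosin gene myo-2 had -0.15 ± 0.063 (adjusted p = 0.693). The intestine list was mixed in direction, with 11 genes above 0, 7 below and a median of 0.016. Among those below, asp-3 had -0.16 ± 0.047 (adjusted p = 0.456). The summed level of this list was 4503 ± 77.6, 4669 ± 229 and 4899 ± 30.7 CPM in hlh-2-labelled, lin-32-labelled and L4440 libraries. The pharynx list had 6 above 0, 9 below and a median of -0.045. In lin-32-labelled libraries against L4440 the pharyngeal troponin gene tni-4 had 0.21 ± 0.057 (adjusted p = 0.146) and the synaptogyrin gene sng-1 had -0.61 ± 0.32 (adjusted p = 0.467). Most of the pharynx list went the other way from tni-4, with 11 genes below 0, 4 above and a median of -0.088. Among them phat-5 had -1.28 ± 0.40 (adjusted p = 0.196). The pan-neuronal list had 10 genes below 0, 8 above and a median of -0.024. The 6 vitellogenin genes of yolk summed to 62340 ± 657, 62626 ± 2885 and 66217 ± 813 CPM in hlh-2-labelled, lin-32-labelled and L4440 libraries, and none of them passed. All 6 had a log2 fold change below 0 against L4440 in both RNAi groups. Without overlap, 6 were lower in hlh-2-labelled libraries, against 12.2% of all tested genes, and 3 in lin-32-labelled libraries, against 15.4%. Of the 18 oocyte and eggshell genes, 7 and 4 were lower without overlap in these comparisons, and 0 and 2 were higher.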
